A study of Homo sapiens with 16 samples.

Results

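The genes described here are the Wnt ligands, their Frizzled receptors, and the secreted proteins and receptors that tune Wnt signalling, in kidney organoids grown from human embryonic stem cells. They were chosen by gene symbol in the single-cell feature list: every WNT gene, FZD1 to FZD10, the SFRP and DKK families, the R-spondins RSPO1 to RSPO4 and their receptors LGR4 to LGR6. The rule found 44 of 36601 listed genes, made up of 19 WNT, 10 FZD, 4 SFRP, 4 DKK, 4 RSPO and 3 LGR genes. By Ensembl identifier, 39 of them were among the 20121 genes of the first bulk table, 43 among the 27650 of the second and 38 among the 21093 of the third. DKK4 was in no bulk table, WNT2, WNT7A, WNT8A and SFRP5 were only in the second, and RSPO2 was missing from the third.

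All libraries came from 1 stem cell line, UM77-2, differentiated with the GSK3 inhibitor CHIR99021, which itself activates the β-catenin pathway, and the BMP antagonist Noggin, so every group shares that early Wnt stimulus. Bulk RNA-seq was made from isolated spheroids. Set 1 has 1 library each at days 21, 25 and 29, and set 2 has 2 libraries at each of the same days, from spheroids refed daily from day 17. The TNF set has 4 libraries, all collected at day 25, of spheroids given 5 ng/ml TNF or vehicle control (VC) for 24 or 48 h, 1 library per condition. Single-cell RNA-seq covered whole-well organoid cultures, not isolated spheroids, at day 24 after 24 h of TNF at 5 ng/ml or of vehicle, 1 library each. Bulk and single-cell libraries thus differ in material and in day. The labels do not say whether the 2 libraries of a day come from separate differentiations. The p-values of set 2 thus measure the spread between these libraries, which may be technical. The TNF set has no replicate of a condition, so its 24 h and 48 h pairs stand in for replicates.

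Wnt proteins are lipid-modified secreted signals that bind Frizzled receptors together with the co-receptors LRP5 and LRP6, stabilise β-catenin and thereby switch on TCF/LEF target genes. Secreted Frizzled-related proteins (SFRP) bind Wnts, Dickkopf proteins (DKK) block the LRP co-receptors, and R-spondins, through LGR receptors, keep the ligases RNF43 and ZNRF3 from removing Frizzled from the cell surface. In the developing kidney Wnt9b and Wnt4 drive the conversion of mesenchyme into nephron epithelium, Wnt11 marks the ureteric tips, and stromal cells supply R-spondin and SFRP.

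Bulk levels are given as the deposited values, log2(CPM + 1), and differences between them are on that log2 scale, which understates the change of low genes. Library totals were 19073609 to 30282025 reads in the day sets and 49948198 to 59246286 in the TNF set. Calls rest on limma with an intensity trend, at a threshold of 0.05 after Benjamini-Hochberg adjustment over every gene of the table. In bulk spheroids, fewer cells of a type and less RNA per cell cannot be told apart.

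Per kilobase of exon, the families were each led by 1 gene in nearly every table. Averaged over the 6 libraries of set 2, WNT5A led the ligands at 23.2 RPKM (reads scaled to exon length and library total), with WNT4 next at 17.9. FZD7 led the receptors at 36.4, SFRP1 the SFRP family at 39.3, DKK1 the Dickkopfs at 33.8, LGR4 the LGR receptors at 28.0 and RSPO3 the R-spondins at 7.37 RPKM. The same genes led in set 1 and in the TNF set, except that WNT4 (17.4 RPKM) stood above WNT5A (13.6 RPKM) in the latter. DKK1 was 8.67 times its next relative DKK3 (3.90 RPKM) in set 2, and LGR4 stood 21.6 times above LGR5 (1.29 RPKM).

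Between day 21 and day 29, 10 of 19 ligands, 3 of 4 SFRP genes and RSPO3 rose, while RSPO1, LGR4, FZD5 and 2 ligands fell. In set 2, 25 of the 43 listed members were called, where 18.4% of all genes were. Higher on day 29 were 20 members (10.0% of all genes) and lower were 5 (8.33% of all genes). The median member difference was 0.36, beside -0.02 over all genes. With each library centred on its own median, the split was 19 higher and 8 lower, and over all genes 8.71% were higher and 16.9% lower. Of the 25 called members, 14 were called in the same direction under every alternative run for them (12 for DKK2, which the filter on low values left out, and 13 for the others), including each library left out in turn. The other 11 lost the call without 1 or more single libraries: FZD8 without the first day 21 library, WNT2B without the second, LGR4 and WNT5A without either, and WNT9A without the second library of day 21 or of day 29. FZD7, WNT7A and WNT10B lost it without any 1 of 3 libraries, and WNT8B, WNT7B and SFRP4 without any 1 of 4, 5 and 6.

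The largest rise was that of RSPO3, an R-spondin made by mesenchyme. Its 2 libraries stood at 3.0 and 2.73 on day 21, at 5.09 and 4.86 on day 25 and at 5.96 and 6.41 on day 29. The difference between days 29 and 21 was 3.32 ± 0.16 (SE, adjusted p = 5.73e-05, limma). In set 1 the single libraries of the 3 days stood at 4.66, 6.19 and 6.53, so its day 21 library began above that of set 2. RSPO1, the other R-spondin at appreciable levels, went the opposite way. It measured 4.44 and 4.73 on day 21, 3.87 and 3.86 on day 25 and 2.64 and 2.13 on day 29, a difference of -2.20 ± 0.18 (adjusted p = 0.000248, limma). Set 1 ran in the same direction, from 3.62 through 3.18 to 2.23. On day 21 of set 2, RSPO1 stood above RSPO3 per kilobase (7.56 against 1.27 RPKM) and on day 29 far below it (1.40 against 14.7 RPKM). RSPO2 was near 0 in set 2 (0.10 to 0.31), and RSPO4 (1.67 to 2.25) was not called.

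The secreted Wnt antagonists mostly rose. SFRP2 went from 3.44 and 3.63 on day 21 through 4.72 and 4.37 to 5.53 and 6.44 on day 29, a difference of 2.45 ± 0.26 (adjusted p = 0.000714, limma). In set 1 SFRP2 rose from 4.66 to 6.54. SFRP1 stood at 6.38 and 6.25 on day 21, already at 7.90 and 7.67 on day 25, and at 8.03 and 8.02 on day 29. Its difference of 1.71 ± 0.09 (adjusted p = 6.94e-05, limma) arose mainly before day 25, and set 1 rose by less, from 7.42 to 8.20. SFRP4 rose by 0.62 ± 0.18 (adjusted p = 0.0475, limma), from 2.49 and 2.11 to 2.90 and 2.93, with an adjusted p of 0.0123 to 0.245 over the alternatives. SFRP5 was at or near 0 in every set 2 library, at 0.02 to 0.10.

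DKK1, a co-receptor blocker and itself a known β-catenin target gene, rose late. The 2 libraries were at 4.90 and 4.84 on day 21, at 5.78 and 5.70 on day 25 and at 6.73 and 7.53 on day 29. The difference was 2.26 ± 0.21 (adjusted p = 0.000393, limma), and set 1 ran from 4.88 to 6.77. The second day 29 library was the higher one for DKK1, SFRP2, WNT10B and RSPO3 and the lower one for LGR4 and FZD5. The same library had less than the first of the summed podocyte markers (3916 against 8266 CPM) and of the neural progenitor or glial markers (601 against 735 CPM). It had more of the stromal markers (17672 against 14151 CPM) and of the neuronal markers (771 against 468 CPM). The median of the neural progenitor or glial markers, unlike their sum, was higher in the second library (4.56 against 3.96). The part of this in the members' values was not tested. DKK2 rose by 1.18 ± 0.19 (adjusted p = 0.00406, limma) from 0.16 and 0.57 to 1.58 and 1.52, but in set 1 it stayed between 1.56 and 1.64. DKK3, a divergent Dickkopf, was not called (0.27 ± 0.09, adjusted p = 0.0853, limma).

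The 250 bases before the DKK1 start site are shown because DKK1 led its family and because they hold 2 matches to the TCF/LEF letters, marked in capitals. The RefSeq start defines the stretch, which lies on the forward strand at chr10:52314031-52314280 (GRCh38.p14).

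DKK1: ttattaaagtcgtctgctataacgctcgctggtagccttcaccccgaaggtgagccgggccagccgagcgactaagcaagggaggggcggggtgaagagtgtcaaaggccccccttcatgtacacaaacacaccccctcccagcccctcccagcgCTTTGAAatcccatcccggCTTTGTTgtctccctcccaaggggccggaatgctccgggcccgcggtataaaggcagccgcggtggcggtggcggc

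The letters searched were CTTTG followed by 2 letters that are each A or T, on both strands, in the 250 bases before and 50 after each RefSeq start. They occurred in 13.8% of all 35116 such promoters and in 2 of the 35 promoters given for 30 members, those of DKK1 and WNT3. A match is a run of letters and says nothing of binding.

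Among the ligands, 10 of 19 rose, 2 fell and 7 were not called between days 29 and 21 of set 2. WNT4, which acts in the mesenchyme-to-epithelium step, went from 5.34 and 5.51 through 6.57 and 6.53 to 6.77 and 6.95. Its difference was 1.44 ± 0.09 (adjusted p = 9.88e-05, limma), and set 1 followed closely, from 5.25 through 6.37 to 6.87. WNT9B, the ureteric ligand upstream of WNT4 in the embryonic kidney, had the largest ligand difference, 2.15 ± 0.21 (adjusted p = 0.000493, limma), from 1.24 and 0.71 to 3.14 and 3.12. Set 1 rose alike, from 1.10 to 2.94. WNT11 went from 1.5 in both libraries to 2.85 and 2.87 (1.36 ± 0.15, adjusted p = 0.000689, limma). In set 1 WNT11 peaked on day 25, at 2.89, with 1.92 and 2.55 on the days around it.

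WNT2B, a ligand of coelomic and mesenchymal tissues, moved from 4.35 and 4.03 to 5.07 and 5.57 (1.13 ± 0.19, adjusted p = 0.00587, limma). WNT10B ended at 3.20 and 3.91 after 2.42 and 2.16 on day 21 (1.27 ± 0.26, adjusted p = 0.0135, limma). WNT10A, low throughout, went from 0.70 and 0.54 to 1.57 and 1.62 (0.98 ± 0.14, adjusted p = 0.00297, limma). The libraries of these 3 called ligands did not overlap between days 21 and 29, which held for other called ligands such as WNT4 and WNT9B too. The share of all genes without overlap was not counted. WNT2B, WNT10B and WNT10A were each higher on day 29 in set 1 too, by 1.05, 1.14 and 0.40.

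The non-canonical ligands WNT5A and WNT5B moved less. WNT5A, the most abundant ligand per kilobase, rose from 7.0 and 6.96 to 7.83 and 7.35 (0.61 ± 0.14, adjusted p = 0.0195, limma). WNT5B went from 3.36 and 3.38 to 4.07 and 4.37 (0.85 ± 0.13, adjusted p = 0.003, limma). WNT9A rose from 2.61 and 2.33 to 3.13 and 3.21 (0.70 ± 0.16, adjusted p = 0.0204, limma), and WNT7A from 0.27 and 0.35 to 0.86 and 1.64 (0.94 ± 0.24, adjusted p = 0.0288, limma).

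Lower on day 29 were 2 ligands. WNT8B went from 1.35 and 1.59 to 0.72 and 0.83 (-0.70 ± 0.17, adjusted p = 0.0289, limma), with set 1 at 1.58 and 0.61. WNT7B went from 2.99 and 2.62 to 2.23 and 2.03 (-0.68 ± 0.18, adjusted p = 0.035, limma), while set 1 held at 1.86 to 1.92. Just outside the threshold were WNT3, at 0.46 ± 0.13 with an adjusted p that rounds to the threshold itself, and WNT3A (-0.62 ± 0.18, adjusted p = 0.0521, limma). WNT1 (0.48), WNT6 (0.17), WNT16 (0.28), WNT2 (0.08) and WNT8A (-0.09) were not called either.

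Of the 10 Frizzled receptors, 4 rose, 1 fell and 5 were not called. FZD1 went from 6.42 and 6.39 through 7.01 and 7.12 to 7.29 and 7.51 (1.0 ± 0.09, adjusted p = 0.000293, limma), and in set 1 from 6.34 to 7.30. FZD8 rose from 3.95 and 4.10 to 4.67 and 4.97 (0.80 ± 0.15, adjusted p = 0.00829, limma). The libraries of both called genes were separate between days 21 and 29, as were those of the called FZD2, FZD7 and FZD5. The share of all genes for which this held was not counted. FZD2 changed by 0.42 ± 0.07 (adjusted p = 0.00431, limma), from 6.01 and 6.05 to 6.40 and 6.51. FZD7, the most abundant receptor per kilobase in bulk, changed by 0.36 ± 0.09 (adjusted p = 0.0221, limma), from 7.09 and 7.24 to 7.44 and 7.61. FZD7 was not called after median centring either, with an adjusted p of 0.00478 to 0.163 over the alternatives.

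FZD5 was the 1 receptor that fell, from 6.02 and 5.83 on day 21 to 5.35 and 5.05 on day 29 (-0.72 ± 0.11, adjusted p = 0.00403, limma). In set 1 it stood at 5.26 and 4.97. Not called were FZD10 (-0.81 ± 0.27, adjusted p = 0.083, limma), FZD9 (-0.28), FZD4 (0.18), FZD3 (0.11) and FZD6 (-0.01). LGR4 fell from 7.85 and 7.81 to 7.27 and 6.74 (-0.82 ± 0.15, adjusted p = 0.00852, limma) and stood at 7.98 and 7.11 in set 1. LGR5, a marker of growing nephron segments, was called lower on day 25 alone, at 2.55 and 2.09 after 3.46 and 3.43 on day 21 (-1.13 ± 0.20, adjusted p = 0.02, limma). On day 29 it stood at 2.68 and 3.07, and LGR6 (0.96 to 1.54) was not called.

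**Figure D1:**
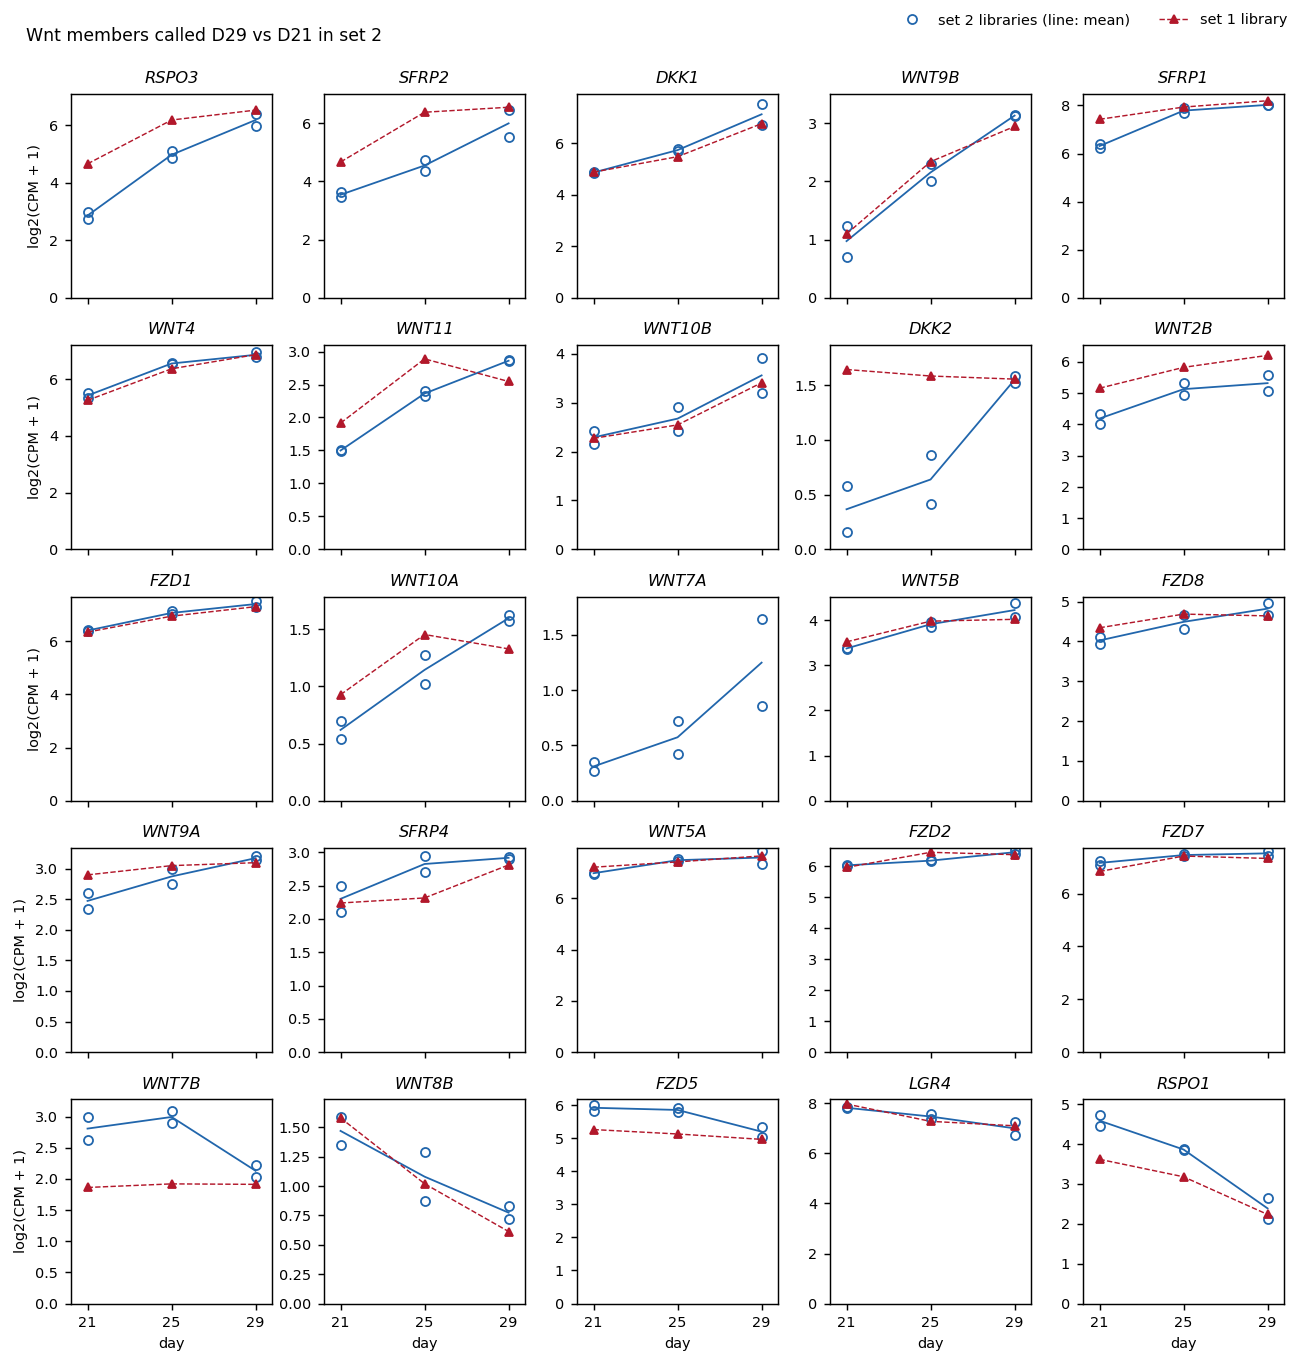
Level of each of the 25 members called between days 29 and 21 of set 2, as log2(CPM + 1) against the day of culture. Open circles are the 2 set 2 libraries of a day and the blue line their mean, red triangles are the single set 1 libraries, and WNT7A is not listed in set 1. RSPO3 and SFRP2 climb most, RSPO1 drops, and the set 1 libraries of DKK2 and WNT7B stay level.

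Of the 25 called members, 24 were listed in set 1, and 22 of those had the same sign of the difference there. Over all genes called in set 2 and listed in set 1, the share with the same sign was 81.3%. DKK2 and WNT7B were the members with opposite signs. Without regard to calls, 26 of the 39 members listed in set 1 were higher on day 29 than on day 21, with a median difference of 0.40 beside -0.00 over all genes. Set 1 has no replicate and gives no test.

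The steps between the days differed in number. From day 21 to day 25 of set 2, 8 members were called (5.37% of all genes), LGR5 lower (1.99% of all genes) and 7 higher (3.39%): RSPO3, SFRP1, WNT9B, WNT4, WNT2B, WNT11 and FZD1, by 2.11, 1.47, 1.18, 1.13, 0.94, 0.86 and 0.66. With median centring, 9 were higher (3.51% of all genes) and 3 lower (4.63%). RSPO3, SFRP1 and WNT4 were called under every alternative. From day 25 to day 29, 5 members were called (2.08% of all genes). SFRP2 (1.45), DKK1 (1.39) and RSPO3 (1.21) were higher (1.25% of all genes) and RSPO1 (-1.48) and FZD5 (-0.66) lower (0.825%). These calls were lost without either of the day 25 libraries, which leaves 1 library for that day. That loss was not particular to the members.

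Markers of cell types moved with the days as well. Of 8 stromal markers, 7 rose in set 2 between days 21 and 29, and their summed level went from 4817 and 4219 CPM to 14151 and 17672 CPM. Of 10 podocyte markers, 5 fell and 1 rose, and of 10 proximal tubule markers 6 fell. Higher were also 7 of 8 neuronal markers (median difference 1.32), 6 of 7 mural markers (1.99), 5 of 6 endothelial and 5 of 8 muscle markers. Of the 8 markers of the neural progenitor or glial class 4 rose and 1, NES, fell (-0.87). Their median value went from 2.57 and 2.43 to 3.96 and 4.56. Their summed level went the other way, from 946 and 1173 CPM to 735 and 601 CPM. Among members with 50 UMIs in VC, that class was highest for DKK1 and WNT10B, which rose in bulk, and for RSPO1 and WNT7B, which fell. It was also highest for WNT1, WNT3, WNT3A, FZD3, FZD10 and DKK3, which were not called. The part of the marker shifts in the changes of the Wnt members was not tested.

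The rest of the pathway was taken from fixed lists. Among TCF/LEF factors and β-catenin target genes, 6 of 12 rose between days 21 and 29 and 2 fell, with a median of 0.64. DKK1 and LGR5 are on that list too. LEF1, a DNA-binding partner of β-catenin, went from 4.68 and 4.67 to 5.97 and 6.32 (1.47 ± 0.11, adjusted p = 0.000205, limma). AXIN2, a feedback target, went from 5.11 and 5.07 to 5.69 and 5.95 (0.73 ± 0.10, adjusted p = 0.00248, limma). Of 13 other Wnt antagonists, 5 rose and 3 fell. WIF1, which binds Wnts, rose by 1.62, NOTUM, which removes their lipid, by 1.61, and APCDD1, a membrane inhibitor, by 1.57, while SOST, an LRP blocker, fell by 1.21 on the log2 scale.

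Secretion and co-receptor genes showed 5 rises in 8, of 0.36 to 0.88, with WLS, the carrier of Wnts to the surface, at the upper end. The intracellular β-catenin machinery showed 1 rise and 1 fall in 11 genes and a median of -0.05. Of 7 planar cell polarity genes, 3 rose and 1 fell, led by PRICKLE1 at 1.43.

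The single-cell libraries gave the members' levels by cell class. After a filter of more than 500 genes per cell, 11906 cells of the VC library (median 6358.5 UMIs) and 23160 of the TNF library (median 2599 UMIs) were clustered together, without the Wnt members or pathway genes. The libraries shared 74 barcodes, 0.622% of the VC and 0.320% of the TNF cells. Classes carry the ending "-like" and were named from markers. Clusters 9 (endothelial genes in front, median 972 UMIs in VC) and 13 stayed unnamed. Levels are UMI counts of 3′ tags relative to all UMIs of a class (CPM), and intervals are exact 95% Poisson ones, which hold the counting error alone. Since each condition has a single library, nothing here is tested.

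All 44 members had at least 1 UMI in the VC library and 36 had 50 or more. In VC, 17 of those 36 stood at least 2-fold higher in 1 class than in any other named class, where 17.9% of all genes with 50 UMIs did. In TNF the count was 15 of 36, beside 12.0% of all genes.

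In the VC library, stromal-like cells had the highest RSPO3, SFRP1 and SFRP2. RSPO3 reached 643 CPM there (629 to 656, 8808 UMIs), 4.87 times the next class, proliferating-like cells at 132 CPM. SFRP1 stood at 485 CPM, 2.48 times the Schwann or neural crest glial-like cells (195 CPM). SFRP2 stood at 482 CPM, 2.97 times the proliferating-like cells (162 CPM). These 3 genes, all of which rose with days in bulk, had their top level in the same class. WNT11 was also highest in stromal-like cells, at 14.6 CPM against 6.67 in the next class. WNT4 had 163 CPM in stromal-like cells and 130 CPM in the neural progenitor or glial-like class, then 13.9 to 57.4 CPM in 6 others and 8.92 CPM in Schwann or neural crest glial-like cells.

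Neural progenitor or glial-like cells, an off-target class that also had raised cell-cycle markers, held a distinct group of members. DKK1 was at 920 CPM in them (894 to 947), 11.4 times the proximal tubule-like cells, at 80.6 CPM, the next class. WNT1, a ligand of the dorsal neural tube, was at 119 CPM against 1.10 in the next class, and 89.1% of its UMIs fell in these cells. WNT3A stood at 44.4 CPM against 1.71, and WNT10B at 23.4 CPM against 0.58. The neighbours WNT1 and WNT10B on chromosome 12, 6586 bases apart, were thus highest in the same class. WNT3 (31.1 CPM against 7.49) and the receptor FZD10 (30.7 CPM against 5.91) were highest in these cells as well.

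The coelomic or gonadal epithelial-like cells, named from 3 of 6 markers raised (UPK3B, LHX9 and KRT19), were highest for 4 ligands. WNT2B was at 121 CPM (113 to 129), 10.6 times the podocyte-like cells (11.4 CPM). WNT5A was at 105 CPM, 2.14 times the stromal-like cells. WNT6 was at 34.1 CPM against 14.2 in the stromal-like cells, and WNT10A at 7.09 CPM against 1.77 in the next class. WNT6 and WNT10A lie 6618 bases apart on chromosome 2. Other neighbouring WNT genes did not share a top class. WNT9A and WNT3A, 59065 bases apart on chromosome 1, were highest in muscle-like and in neural progenitor or glial-like cells. WNT9B, 46 bases from WNT3 on chromosome 17, had 13 UMIs in VC, too few for a class.

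Among kidney epithelial classes, FZD5 stood out in the proximal tubule-like cells. It had 15.3 CPM there (13.5 to 17.2) and 1.71 CPM in the next class, and 75.9% of its UMIs were in these cells. Podocyte-like cells had the highest LGR4, 66.1 CPM, not 2-fold over the coelomic or gonadal epithelial-like cells (44.3 CPM). FZD5 and LGR4 fell with days in bulk, as did 5 of 10 podocyte and 6 of 10 proximal tubule markers. FZD6, also highest in podocyte-like cells (24.8 CPM) but not 2-fold ahead, was not called over the same days in bulk (-0.01). The part of the marker shifts in these members' bulk values was not tested. RSPO1 was found in the neural progenitor or glial-like class (20.8 CPM), coelomic or gonadal epithelial-like cells (15.5 CPM) and podocyte-like cells (14.0 CPM), with 0.63 to 2.77 CPM in the others.

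FZD2 was the leading receptor in 7 of 9 classes of the VC library, with 38.1 to 163 CPM, and FZD3 led in the neuronal-like and the neural progenitor or glial-like class, at 83.1 and 147 CPM. Over all VC cells FZD2 stood at 82.3 CPM and FZD7, the leading receptor per kilobase in bulk, at 29.7 CPM. LGR4 led its family in all 9 classes (10.6 to 66.1 CPM), and RSPO3 its own (17.7 to 643 CPM). Muscle-like cells had the highest WNT16 (9.38 CPM) and WNT9A (3.13 CPM) and, with 15.1 CPM, the highest LGR5. Of these VC cells, 991 of 1137 lay in cluster 5, which raised 3 of 8 muscle markers and 4 of 5 myogenic progenitor markers. WNT16 was not ahead in muscle-like cells under 3 of 4 alternatives, where neuronal-like cells led it. Under 50 UMIs in VC were WNT7A (26), WNT2 (19), WNT9B (13), WNT8B (4), WNT8A (1), RSPO2 (31), SFRP5 (6) and DKK4 (1), so no class could be given for WNT9B despite its rise in bulk.

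**Figure D2:**
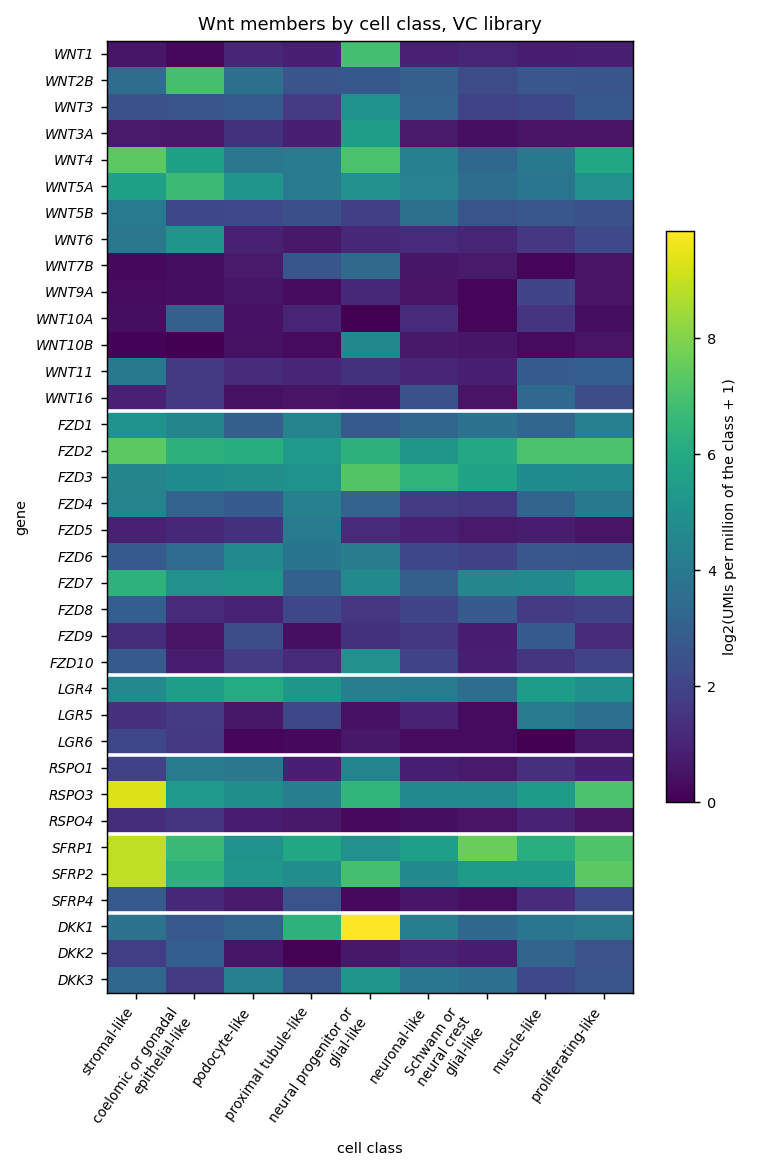
Level of the 36 members with at least 50 UMIs in each named cell class of the VC library, as log2(CPM + 1). White lines separate the WNT, FZD, LGR, RSPO, SFRP and DKK families. The brightest cells are DKK1 in the neural progenitor or glial-like class (920 CPM) and RSPO3, SFRP1 and SFRP2 in stromal-like cells (643, 485 and 482 CPM).

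The second comparison asks how TNF, an inflammatory cytokine, changed the same genes. In day 25 spheroids, 17 of 38 listed members were called between TNF and VC, beside 19.3% of all genes. Higher with TNF were 10 (8.42% of all genes) and lower were 7 (10.8% of all genes). The median member difference was -0.04, beside -0.03 over all genes. The fit took treatment and hours as terms and leaves 1 residual degree of freedom per gene. With no replicate of a condition, that residual holds only how far the difference varied between 24 and 48 h. The error of the fit also leans on the spread shared across genes. With treatment as the only term, 7 members were called, 6 higher (3.02% of all genes) and 1 lower (3.19%).

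WNT10A had the largest difference. It stood at 0.85 in VC and 3.85 in TNF at 24 h and at 1.20 and 4.53 at 48 h, a difference of 3.17 ± 0.12 (adjusted p = 4.65e-12, limma). Per kilobase, WNT10A went from 0.27 and 0.44 RPKM in VC to 4.58 and 7.59 RPKM in TNF. SFRP4 came next, at 3.06 in VC and 4.72 in TNF at 24 h and at 3.18 and 4.76 at 48 h (1.62 ± 0.10, adjusted p = 1.23e-09, limma). WNT10B went from 2.94 to 3.88 and from 2.76 to 3.87 (1.02 ± 0.11, adjusted p = 1.7e-06, limma). All 3 were called under each of the 7 alternatives.

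The receptors FZD9 and FZD8 rose too. FZD9 went from 2.16 to 3.32 at 24 h and from 2.38 to 3.15 at 48 h (0.96 ± 0.12, adjusted p = 1.9e-05, limma). FZD8 went from 3.65 to 4.62 and from 3.81 to 4.53 (0.84 ± 0.10, adjusted p = 4.31e-06, limma). WNT6, the neighbour of WNT10A, was at 1.5 and 2.39 at 24 h and at 2.10 and 2.65 at 48 h (0.72 ± 0.13, adjusted p = 0.00044, limma). WNT3A went from 2.99 to 3.63 and from 3.0 to 3.69 (0.66 ± 0.11, adjusted p = 0.000188, limma). In these 4 called genes both TNF libraries were above both VC libraries, as also in the called WNT10A, SFRP4 and WNT10B. The share of all genes for which this held was not counted. The WNT6 call was lost with treatment as the only term (adjusted p = 0.122, limma).

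Smaller rises were more visible at 24 h. SFRP1 went from 7.79 to 8.50 at 24 h but from 8.27 to 8.35 at 48 h (0.39 ± 0.10, adjusted p = 0.00782, limma). RSPO3 went from 4.75 to 5.25 and then from 5.22 to 5.30 (0.29 ± 0.09, adjusted p = 0.0335, limma). FZD7 went from 7.43 to 7.82 and from 7.31 to 7.43 (0.25 ± 0.07, adjusted p = 0.014, limma). None of these 3 calls held with treatment as the only term or without the intensity trend, and whether the difference changed with time was not tested.

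Lower with TNF was SFRP2 above all, at 3.68 in VC and 3.08 in TNF at 24 h and at 4.89 and 3.70 at 48 h (-0.90 ± 0.12, adjusted p = 3.05e-05, limma). The TNF library at 48 h and the VC library at 24 h were level, since SFRP2 in VC was higher at 48 h. DKK3 fell from 5.47 to 4.87 and from 5.59 to 5.0 (-0.60 ± 0.07, adjusted p = 1.09e-05, limma). WNT2B fell from 3.83 to 3.38 and from 4.23 to 3.56 (-0.56 ± 0.10, adjusted p = 0.000655, limma). With treatment as the only term, SFRP2 and WNT2B lost their call (adjusted p = 0.272 and 0.115, limma).

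WNT8B, WNT7B, WNT1 and WNT4 fell by less, and none of these calls held with treatment as the only term or under DESeq2. WNT8B (-0.41 ± 0.11) went from 1.04 to 0.51 and from 1.27 to 0.98, and WNT7B (-0.41 ± 0.11) from 3.28 to 2.82 and from 3.20 to 2.85. WNT1 (-0.36 ± 0.09) went from 4.16 to 3.73 and from 4.27 to 3.98. WNT4 (-0.21 ± 0.07) went from 6.34 to 6.19 and from 6.57 to 6.31. Their adjusted p values from limma were 0.0166, 0.0153, 0.0115 and 0.0361. WNT1 thus fell while its neighbour WNT10B rose.

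Not called were 21 members, among them the abundant WNT5A (-0.01 ± 0.07), FZD1 (-0.12 ± 0.06), FZD2 (0.06 ± 0.07), FZD4 (0.12 ± 0.07) and LGR4 (-0.15 ± 0.06). DKK1 was at 6.58 in VC and 5.92 in TNF at 24 h but at 6.47 and 6.68 at 48 h, and was not called (adjusted p = 0.239, limma). The other 15 differences lay between -0.32 (RSPO4) and 0.07 (FZD6), RSPO1 (-0.07), FZD5 (-0.22) and WNT9B (-0.28) among them.

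**Figure D3:**
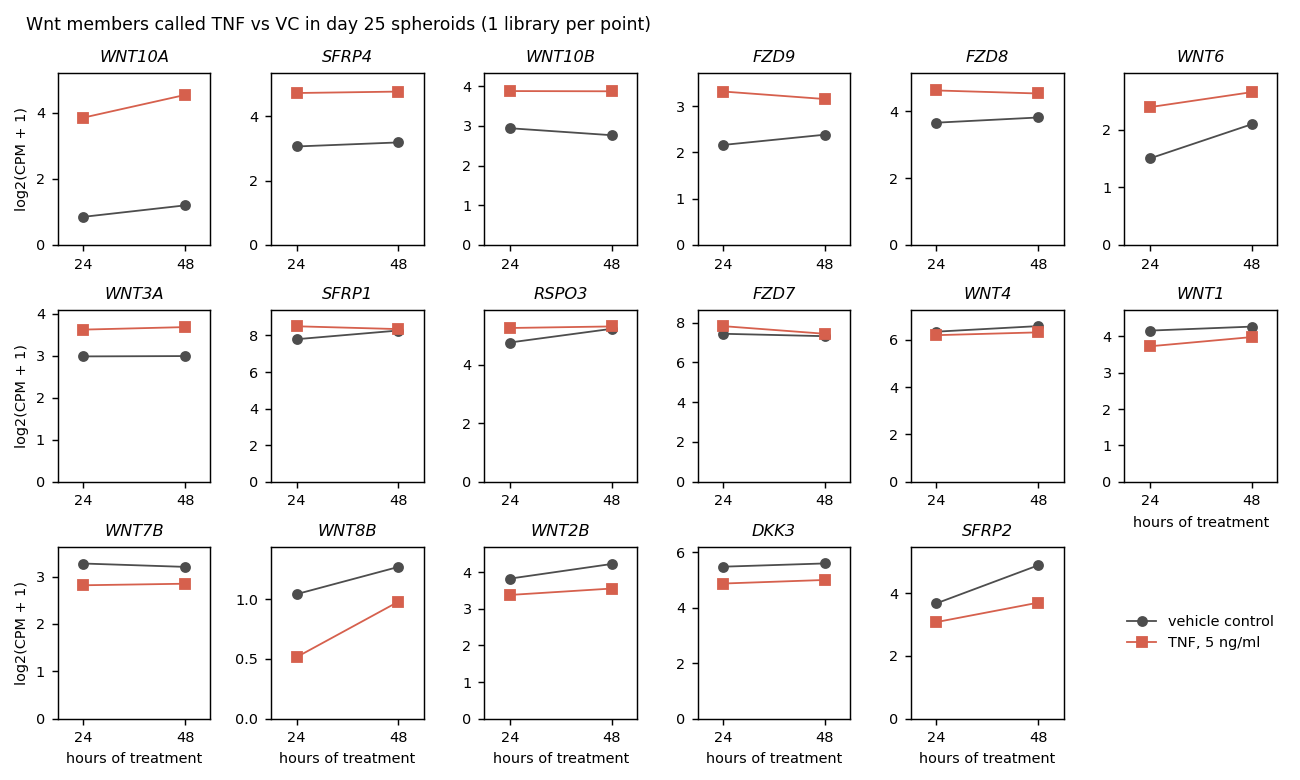
Level of each of the 17 members called between TNF and VC in day 25 spheroids, as log2(CPM + 1) against the hours of treatment. Grey circles are VC and red squares TNF libraries, 1 per point, ordered from the largest rise (WNT10A, 3.17) to the largest fall (SFRP2, -0.90). The lines of SFRP1, RSPO3 and FZD7 nearly meet at 48 h.

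TNF acts in part through the transcription factor NF-κB, and the 250 bases before the start sites of WNT10A and FZD9 are shown because both genes rose with TNF and hold matches to the NF-κB motif, in capitals. They lie on the forward strand at chr2:218880602-218880851 and chr7:73433528-73433777 (RefSeq, GRCh38.p14).

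WNT10A: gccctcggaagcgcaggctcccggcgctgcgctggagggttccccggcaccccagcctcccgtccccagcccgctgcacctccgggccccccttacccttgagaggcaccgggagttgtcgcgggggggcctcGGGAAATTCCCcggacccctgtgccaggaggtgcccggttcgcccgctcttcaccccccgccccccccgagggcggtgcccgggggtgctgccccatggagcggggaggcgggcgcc

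FZD9: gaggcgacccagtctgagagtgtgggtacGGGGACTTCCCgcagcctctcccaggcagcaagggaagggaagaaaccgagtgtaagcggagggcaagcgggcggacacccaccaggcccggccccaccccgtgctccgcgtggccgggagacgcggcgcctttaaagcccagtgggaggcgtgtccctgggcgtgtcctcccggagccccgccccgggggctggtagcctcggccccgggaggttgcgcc

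The capitals join overlapping matches on both strands, starting 117 bases before the start site in WNT10A and 221 in FZD9. The motif occurred, on either strand, in 11.3% of the 35116 promoters and in 10 of the 35 given for members. It was not limited to genes that rose: of members called higher with TNF it was found in 2 of 7 with a promoter, of those called lower in 3 of 5 (SFRP2, WNT2B and WNT4) and of those not called in 4 of 14.

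The other pathway genes moved both ways with TNF. Of 13 other Wnt antagonists, 2 rose and 6 fell. KREMEN2, a DKK co-receptor, went from 5.04 to 7.36 at 24 h and from 5.32 to 7.17 at 48 h (2.09 ± 0.09, adjusted p = 1.05e-11, limma). NOTUM went from 3.85 to 5.36 and from 4.33 to 5.33 (1.26 ± 0.10, adjusted p = 7.67e-08, limma). SOST went from 7.41 to 6.52 and from 7.21 to 5.99 (-1.06 ± 0.07, adjusted p = 1.04e-08, limma). Among TCF/LEF factors and targets 3 of 12 rose (CCND1, TNFRSF19 and LEF1, by 0.57, 0.28 and 0.26) and none fell. PORCN, the enzyme that lipidates Wnts, was the 1 rise of 8 secretion and co-receptor genes (0.59). No gene of the 11 of the intracellular machinery was called, and of 7 planar polarity genes 1 rose and 1 fell.

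All 10 podocyte and all 10 proximal tubule markers fell with TNF in bulk, with medians of -0.84 and -1.07, and 6 of 7 mural markers rose. Stromal markers moved both ways, 3 higher and 2 lower of 8. Of 6 Schwann or neural crest glial markers, 5 rose and 1 fell (median 0.52), and of 6 endothelial markers 3 fell (median -0.35). Their part in the members' differences was not tested.

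In single cells, 3 members were at least 2-fold higher in the TNF library over all cells (2.42% of genes with 50 UMIs) and 4 at least 2-fold lower (2.70%). Higher were SFRP4 (13.9-fold, 95% interval 12.2 to 16.0), WNT10A (4.89-fold, 3.99 to 6.03) and WNT10B (2.10-fold, 1.72 to 2.57). Lower were SFRP2 (0.27 of VC), WNT2B (0.35), WNT1 (0.48) and WNT7B (0.49). In bulk the 3 higher ones were also called higher (8.42% of all genes) and the 4 lower ones lower (10.8% of all genes). How many of all genes 2-fold apart in single cells were called the same way in bulk was not counted. Shares of the classes differed between the libraries, with the coelomic or gonadal epithelial-like class at 7.25% of VC and 2.39% of TNF cells and the neural progenitor or glial-like class at 5.99% and 2.02%. Podocyte-like cells went from 11.9% of VC to 19.0% of TNF cells and proximal tubule-like cells from 10.4% to 15.6%. The part of these shares in the ratios over all cells was not tested. Levels within classes are given next.

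SFRP2 was lower in the class where it stood highest. Stromal-like cells went from 482 CPM (6602 UMIs) in VC to 53.8 CPM (876 UMIs) in TNF, a ratio of 0.11 (0.10 to 0.12). Proliferating-like cells went from 162 to 34.5 CPM, a ratio of 0.21, and the neural progenitor or glial-like class from 118 to 54.4 CPM, a ratio of 0.46. Stromal-like cells were no longer 2-fold ahead of every other class for SFRP2 in the TNF library.

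SFRP4 was higher in TNF in each of the 7 compared classes where it had 50 UMIs over both libraries. Stromal-like cells went from 5.84 CPM (80 UMIs) to 83.8 CPM (1365 UMIs), a ratio of 14.4 (11.5 to 18.2). Podocyte-like cells went from 0.62 to 17.7 CPM (ratio 28.7, 14.9 to 63.2) and proximal tubule-like cells from 4.69 to 16.8 CPM (3.59, 2.81 to 4.63). In TNF the gene ranged over all 9 classes from 13.9 to 83.8 CPM. In the proximal tubule-like cells, the summed stromal markers were also higher in TNF (336 to 1063 CPM), as were the podocyte markers (199 to 598 CPM), and their part in the SFRP4 values was not tested.

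WNT10A was higher in epithelial classes, and its median over all 9 named classes also went from 0.41 CPM in VC to 2.43 CPM in TNF. It went from 0.41 CPM (6 UMIs) to 8.82 CPM (162 UMIs) in podocyte-like cells, a ratio of 21.4 (9.63 to 59.2), and from 1.04 to 8.48 CPM in proximal tubule-like cells (8.18, 5.04 to 14.0). In coelomic or gonadal epithelial-like cells it went from 7.09 to 36.1 CPM (5.09, 3.55 to 7.37). Podocyte-like cells also showed WNT10B, from 0.34 CPM (5 UMIs) to 5.01 CPM (92 UMIs), a ratio of 14.6 (6.04 to 46.0). The median of WNT10B over all 9 named classes went from 0.34 to 2.39 CPM. Whether free RNA carries part of the WNT10A and WNT10B values was not tested. In its main class, the neural progenitor or glial-like one, WNT10B was at 23.4 and 26.7 CPM, a ratio of 1.14 (0.80 to 1.59). WNT6 was higher in podocyte-like (ratio 2.99, 1.60 to 6.01) and proximal tubule-like cells (4.05, 2.04 to 8.77). In its main class, the coelomic or gonadal epithelial-like one, WNT6 went from 34.1 to 26.3 CPM. In stromal-like cells it went from 14.2 to 10.1 CPM and over all cells from 5.34 to 4.98 CPM, unlike its rise in bulk.

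WNT2B was lower in its main class, the coelomic or gonadal epithelial-like cells, from 121 to 37.2 CPM (0.31, 0.25 to 0.38), and in podocyte-like cells from 11.4 to 3.65 CPM (0.32). DKK3 went in podocyte-like cells from 19.0 to 8.82 CPM (0.46, 0.38 to 0.57). WNT11 went in stromal-like cells from 14.6 to 6.38 CPM (0.44, 0.34 to 0.56), which bulk did not show as a call (-0.23, adjusted p = 0.211, limma). In the neural progenitor or glial-like class FZD10 (ratio 0.35) and WNT7B (0.11, from 50 and 2 UMIs) were lower. Proximal tubule-like cells had WNT7B at 5.29 CPM (97 UMIs) in VC and 3.74 CPM (60 UMIs) in TNF. WNT1 went from 119 to 86.4 CPM in the neural progenitor or glial-like class, and 89.1% of its VC UMIs fell there. DKK1 was there at 920 and 717 CPM (0.78, 0.73 to 0.83) and WNT3A at 44.4 and 52.3 CPM (1.18, 0.92 to 1.5).

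RSPO3 and SFRP1 were at least 2-fold higher in TNF in several classes outside the stroma. RSPO3 went from 17.7 to 78.1 CPM in proximal tubule-like cells and from 24.3 to 101 CPM in neuronal-like cells, but from 643 to 384 CPM in stromal-like cells. SFRP1 went from 58.3 to 158 CPM in proximal tubule-like and from 31.6 to 106 CPM in podocyte-like cells, with 485 and 535 CPM in stromal-like cells. The summed level of the 8 stromal markers moved with them, from 336 to 1063 CPM in proximal tubule-like, from 446 to 1516 in neuronal-like and from 1173 to 1633 in podocyte-like cells, while stromal-like cells went from 7426 to 4762 CPM. Whether free RNA or mixed droplets carry part of these values was not tested.

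By class, the counts of members at least 2-fold apart were as follows. In podocyte-like cells 10 of 28 members were higher (6.97% of all genes) and 2 lower (2.30%), and in proximal tubule-like cells 7 of 25 were higher (5.06%) and 0 lower (1.54%). In stromal-like cells 2 of 26 were higher (4.12%) and 4 lower (2.17%), and in neuronal-like cells 7 of 22 were higher (7.18%) and 0 lower (2.79%). Schwann or neural crest glial-like cells had 6 of 18 higher (3.37%) and 0 lower (0.505%), proliferating-like cells 2 of 24 higher (2.95%) and 2 lower (0.907%). The neural progenitor or glial-like class had 1 of 20 higher (2.27%) and 3 lower (2.11%), and coelomic or gonadal epithelial-like cells had 4 of 19 higher (2.90%) and 2 lower (2.00%). FZD4 was higher in neuronal-like (2.33 to 11.0 CPM) and podocyte-like cells (6.38 to 16.0 CPM), and FZD8 in podocyte-like (0.96 to 3.70 CPM) and proliferating-like cells (2.78 to 9.02 CPM). In stromal-like cells LGR6 was lower (3.36 to 1.04 CPM) and LGR5 higher (1.68 to 3.56 CPM), whereas LGR5 was lower in proliferating-like cells (11.0 to 4.71 CPM). Muscle-like cells were not compared, since 991 of 1137 VC cells but 1104 of 2553 TNF cells lay in cluster 5 and the rest in cluster 10.

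**Figure D4:**
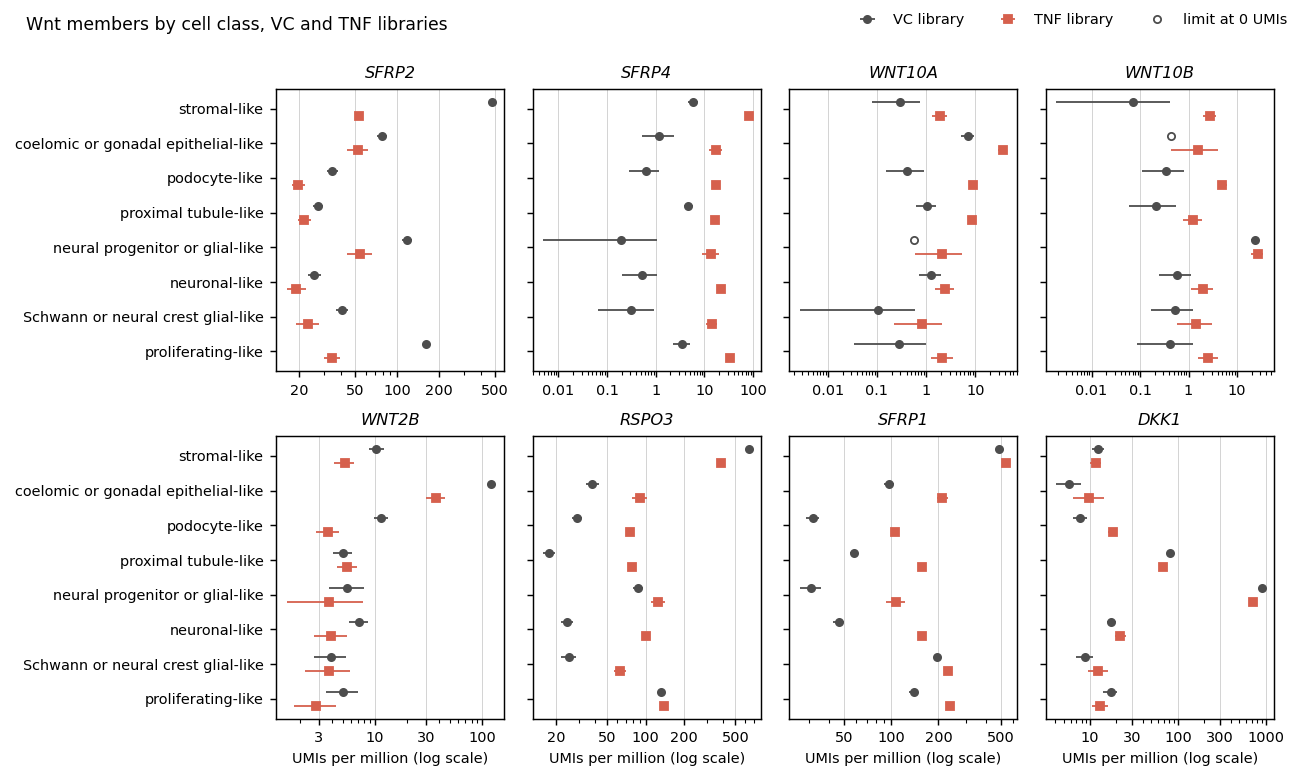
Level of 8 members in 8 named cell classes of the VC library (grey circles) and the TNF library (red squares), as CPM on a log axis, with exact 95% Poisson intervals. Open circles mark the limit of 3 UMIs where none was found. SFRP2 drops in stromal-like cells from 482 to 53.8 CPM, SFRP4 is higher in TNF in each class, and DKK1 is at 920 and 717 CPM in the neural progenitor or glial-like class.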

How the data were processed

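Bulk RNA-seq was aligned by the authors with STAR 2.7.8a to GRCh38, counted per gene with HTSeq (0.11 in the submitters' processing notes), without a stated strand setting, and scaled with voom. The deposited bulk values are log2(CPM + 1) with 0.5 added to each count, filtered by a rule not stated. Every value came back to within 1.68e-08 of a whole read, so edgeR and DESeq2 were run on the recovered reads as alternatives. The deposited single-cell matrices hold the UMI counts of each gene and cell, from Cell Ranger (6.0.1 per the file headers). Library totals and median UMIs are given above, and the 2 libraries per day limit the precision.

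The main test was limma (3.58.1, R 4.3.3) on the deposited log2 values, two-sided, with all 6 libraries of set 2 and 1 mean per day, or with treatment and hours as terms in the TNF set. Adjusted p values were taken over all genes of a table. For the numbers of genes, limma called 5081 between days 29 and 21 where edgeR called 5552 and DESeq2 4475, and 4061 with TNF where they called 4455 and 2184. The fits were tested on simulated counts. RPKM used the union of exons in the GENCODE annotation.

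Cells with over 500 genes were clustered in scanpy (1.11.5) without 93 genes, the members and the pathway lists: 2000 variable genes per library, 30 principal components, alignment of the libraries with a Harmony procedure, 20 neighbours and Leiden at resolution 0.25. A class needed 3 raised markers. Doublets were kept, since Scrublet's automatic threshold marked 0 cells. Members and lists were chosen with earlier results of these data known. All members are accounted for. Full values are given for members called in bulk with a mean of at least 1 in a group, for the top gene of each family, and for members at least 2-fold above the next class with 50 UMIs. Ratios between the libraries are named at 50 UMIs over both and at least 2-fold. The day 25 control single-cell library was not analysed here.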

Additional observations from a re-analysis of the deposited data

Results flagged for a closer look

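Some members moved in opposite directions in a pair of settings, and none of these differences was tested. With TNF in bulk, DKK1 was lower at 24 h (-0.67) and higher at 48 h (0.21), and FZD10 was at -0.20 and 0.27. Between days 29 and 21, DKK2 was at 1.18 in set 2 and -0.09 in set 1, and WNT7B at -0.68 and 0.05. In single cells LGR5 was 2.12 times as high in TNF as in VC in stromal-like cells (95% interval 1.29 to 3.60) and 0.43 times in proliferating-like cells (0.28 to 0.65).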

How the results depend on the processing

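Among the 25 members called between days 29 and 21, the count stayed within 23 to 29 in edgeR, DESeq2, the fit without trend, the filter on low values, median centring, the voom scale and the replicate block, and ranged from 15 to 25 with single libraries left out (16 and 15 without the first and the second day 21 library). The 8 members called between days 25 and 21 became 14 in edgeR, 14 with the filter, 13 with the replicate block and 3 to 16 with libraries left out. The 5 between days 29 and 25 became 10 in DESeq2, 1 without the trend, 9 in edgeR, 8 with median centring, 8 with the replicate block and 0 to 12 with libraries left out. At 0, without either day 25 library, limma gave 3383 and 3715 of all genes an unadjusted p under 0.05. The 17 members called with TNF became 11 in DESeq2 (10.4% of all genes) and 7 with treatment as the only term (6.21%). The share of all genes called also moved between fits of all libraries. Between days 29 and 21 it was 16.2% in DESeq2 and up to 27.8% with the filter. Between days 25 and 21 it was 7.16% in edgeR, 10.2% with the filter and 7.56% with the replicate block. Between days 29 and 25 it was 4.66% in DESeq2, 4.83% in edgeR and 0.756% without the trend. Median centring gave 4.46% there and the replicate block 4.04%. Deviations of same-numbered set 2 libraries from their day means correlated at 0.0753 (days 29 and 21), 0.143 (days 25 and 21) and 0.270 (days 29 and 25). The main fit treats the libraries as unpaired. With the replicate block limma called 6056 genes between days 29 and 21, in place of 5081. The labels do not say whether these numbers pair libraries across days. Calls held under every alternative for 3 of the 8 members called between days 25 and 21, 14 of the 25 between days 29 and 21, 0 of the 5 between days 29 and 25 and 7 of the 17 with TNF. Counting each called gene once per alternative, 513 cases kept the call, 97 lost it and none changed direction. The top class was kept in 64 of 68 cases. Of ratios between the single-cell libraries, 194 moved by less than their interval, 40 by more, and 2 turned without alignment of the libraries, RSPO3 in podocyte-like cells to 0.795 and WNT4 in Schwann or neural crest glial-like cells to 0.895. Removal of doublets by Scrublet's own threshold was not run, as it marked 0 cells. Leaving out the 1190 VC and 4291 TNF cells with the highest scores, chosen after seeing the data, gave 15 members in place of 17 with a class at least 2-fold ahead. The cause of these shifts was not tested. Depth limits 8 members, with under 50 UMIs in VC.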
